A study of Mus musculus with 6 samples.

Results

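The genes described here are 10 components of the G1 control of the cell cycle: the D cyclins Ccnd1, Ccnd2 and Ccnd3, the E cyclins Ccne1 and Ccne2, the cyclin-dependent kinases Cdk2, Cdk4 and Cdk6, and the CDK inhibitors Cdkn1a (p21) and Cdkn1b (p27). They were taken by symbol from a table of 14788 genes, and all 10 were present and passed the filter on low counts. RNA was sequenced from type-2 conventional dendritic cells (cDC2s) of the spleen of C57BL/6 mice, in 3 wild-type (WT) and 3 Arhgef1-/- libraries. Arhgef1 encodes an exchange factor that switches on the small GTPase RhoA below receptors coupled to G12 and G13 proteins. The labels give no age, sorting scheme or deleted exon, and do not state whether each replicate is another animal. Each p-value therefore rests on the spread among these 6 libraries alone, which may be technical. Every WT library carries lane 1 and every Arhgef1-/- library lane 2 of another run name, so lane, run and genotype cannot be told apart.

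D cyclins are made in response to growth signals and bind Cdk4 or Cdk6, and the resulting kinases begin to phosphorylate the retinoblastoma protein. This frees E2F transcription factors, which switch on E cyclins and the replication genes, and cyclin E with Cdk2 then drives entry into S phase. Cdkn1a and Cdkn1b inhibit cyclin E-Cdk2, and Cdkn1a is a well-known target of p53. Splenic dendritic cells arise from dividing precursors and some of them still divide in the spleen.

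Total counts ran from 8408325 to 11714365 per library. Levels are given as CPM, the count scaled to library size as adjusted by TMM normalization factors (1 CPM stood for 8.48 to 11.7 counts). Changes are given as log2 fold changes of Arhgef1-/- against WT with their standard error (SE). A gene is said to have risen or fallen where the edgeR p, adjusted over all 11504 genes tested, was under 0.05. The targeted gene itself went from 284 ± 35.6 to 129 ± 14.8 CPM (SD, n = 3 each), and the counts do not show which exons its reads came from. Of 14 cDC2 markers tested 1 rose (Dtx1, named after its value was seen) and 5 fell, among them Cd209a (234 to 77.6 CPM), Cd4, Sirpa and H2-Ab1, and Clec10a was near absent with 0 to 11 counts per library. Calls were lost for Sirpa without WT replicate 1 (-0.29), H2-Ab1 without WT replicate 3 (-0.24) and Dtx1 without WT replicate 1 (0.34) or Arhgef1-/- replicate 2 (0.31). Macrophage markers moved with the genotype: 11 of 16 tested fell, 0 rose, and all 17 in the table together summed to 741 to 1172 CPM in WT and 271 to 438 CPM in Arhgef1-/- libraries, with 0 of them without counts. In bulk RNA, fewer cells of a type and less RNA per cell cannot be told apart.

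Of the 10 G1 genes, 4 rose (Ccnd1, Cdk2, Cdk4 and Cdk6), 1 fell (Ccnd2) and 5 did not pass the test. Over all genes tested, 10% were called in either direction, 5.27% higher and 4.75% lower. The median log2 fold change of the 10 genes was 0.47, beside 0.00 over all genes tested. In 7 of the 10 the 3 Arhgef1-/- values did not overlap the 3 WT values (6 higher and 1 lower), beside 27.2% of all genes tested. The 3 kinases thus all rose, the D cyclins moved in different directions, and neither E cyclin nor inhibitor passed. The calls of Ccnd1 and Cdk4 were each lost in 5 of the 6 fits that left out 1 library.

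**Figure D1:**
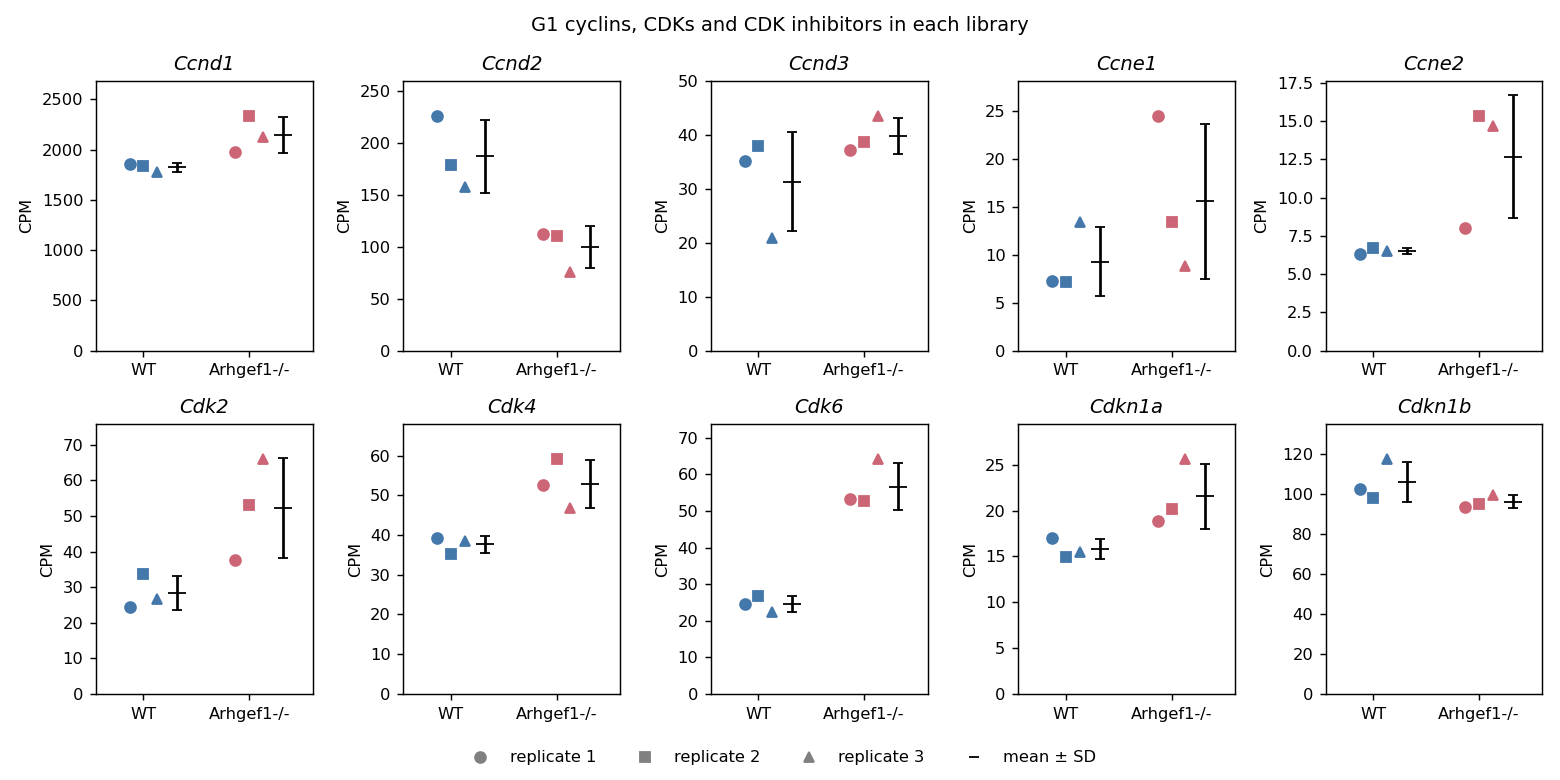
Level of each gene (y axis, CPM from 0) in the 3 WT and 3 Arhgef1-/- libraries, with the symbol marking the replicate number and a bar for the mean ± SD (n = 3). The groups are fully separate for Ccnd1, Ccnd2, Ccne2, Cdk2, Cdk4, Cdk6 and Cdkn1a and overlap for Ccnd3, Ccne1 and Cdkn1b.

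Among the D cyclins Ccnd2 fell to 53.3% of its WT level, Ccnd1 rose slightly from a very high level, and Ccnd3 did not pass. Ccnd2 (ENSMUSG00000000184.12, mm10 chromosome 6, 127125162 to 127152193, minus strand) stood at 225, 178 and 157 CPM in WT replicates 1, 2 and 3 and at 112, 111 and 76.0 CPM in Arhgef1-/- replicates 1, 2 and 3. All Arhgef1-/- libraries lay below the lowest WT library. The log2 fold change was -0.91 ± 0.15 (adjusted p = 5.54e-04), and Ccnd2 stayed called in all 6 fits that left out 1 library. The tested macrophage markers summed to 1171, 886 and 739 CPM in the same WT libraries and to 437, 279 and 270 CPM in the same Arhgef1-/- libraries, which is the order of the Ccnd2 levels. The part of these cells in the fall of Ccnd2 was not tested.

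Ccnd1 (ENSMUSG00000070348.5, chromosome 7, 144929931 to 144939925, minus strand) ranked 22 of 11504 genes by average level. Its counts gave 1857, 1837 and 1776 CPM in WT and 1980, 2332 and 2126 CPM in Arhgef1-/- libraries. The groups did not overlap, but the lowest Arhgef1-/- library, replicate 1, was close to WT. The rise was 0.23 ± 0.07 on the log2 scale (adjusted p = 0.0392). The call was lost in 5 of the 6 fits that left out 1 library, every one except that without Arhgef1-/- replicate 1 (0.29); without Arhgef1-/- replicate 2 the value was 0.17 (adjusted p = 0.195), and without Arhgef1-/- replicate 3 it was 0.24 (adjusted p = 0.0691). Without WT replicates 1, 2 or 3 the values were 0.25, 0.24 and 0.22 (adjusted p = 0.116, 0.102 and 0.129). With the replicate number as a block the adjusted p was 0.0676.

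Ccnd3 stood at 35.3, 38.0 and 20.9 CPM in WT and 37.1, 38.8 and 43.5 CPM in Arhgef1-/- libraries. WT replicate 3 was the low library, and the other 5 lay close together. Its log2 fold change was 0.34 (95% interval -0.06 to 0.75, adjusted p = 0.316). Counted per kilobase of exon, Ccnd1 made up 93.4%, 94.4% and 95.2% of the D cyclin level in WT libraries and 96.3%, 96.8% and 97.2% in Arhgef1-/- libraries. The share of Ccnd2 was 5.67%, 4.58% and 4.22% in WT and 2.73%, 2.30% and 1.74% in Arhgef1-/- libraries, with no overlap. In both genotypes the D cyclin transcripts were thus almost all Ccnd1.

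Both E cyclins were among the least abundant of the 10 genes and neither passed the test. Ccne2 stood at 6.32, 6.68 and 6.49 CPM in WT and at 8.03, 15.3 and 14.7 CPM in Arhgef1-/- libraries. The WT values were nearly equal, and all Arhgef1-/- values lay above them, with replicate 1 lowest. The log2 fold change was 0.97 ± 0.31 (95% interval 0.32 to 1.62), of the size of that of Cdk2, with an adjusted p of 0.0534. Ccne2 passed without Arhgef1-/- replicate 1 (1.21, adjusted p = 0.0170), with DESeq2 (0.97, adjusted p = 0.0356) and with total counts as the scale (1.0, adjusted p = 0.0450).

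Ccne1 had a different pattern over the same libraries. Its level was 7.28, 7.14 and 13.4 CPM in WT and 24.4, 13.4 and 8.78 CPM in Arhgef1-/- libraries. Arhgef1-/- replicate 1, lowest of its group for Ccne2, was highest for Ccne1, and the groups overlapped. The log2 fold change was 0.74 ± 0.35 (95% interval 0.01 to 1.47, adjusted p = 0.214), and it was 0.26 without Arhgef1-/- replicate 1. These intervals are not adjusted for the number of genes tested. Arhgef1-/- replicate 1 also stood apart in some markers of other cells, named after their values were seen. The neutrophil marker gene S100a9 had 95 counts there and 1 and 11 in replicates 2 and 3. Replicate 3 was closer for S100a8 (39, 1 and 18 counts in replicates 1, 2 and 3) and Ngp (36, 0 and 25). The cDC1 marker gene Clec9a had 288 counts there, 58 and 67 in replicates 2 and 3, and 196, 182 and 70 in WT libraries. The rest of the cDC1 list also had more counts there than in replicates 2 and 3, except Batf3 and Wdfy4. Batf3 had 314, 363 and 458 counts in Arhgef1-/- replicates 1, 2 and 3, where 1 CPM stood for 8.59, 9.67 and 11.7 counts. Wdfy4 had 15044, 17459 and 20580 counts there, or 1751, 1806 and 1755 CPM. All 8 cDC1 markers, with Wdfy4 by far the most abundant, summed to 1876 to 2109 CPM in WT and 1858 to 1958 CPM in Arhgef1-/- libraries. All 5 neutrophil markers in the table summed to 1.42 to 3.26 CPM in WT and 0.207 to 20.4 CPM in Arhgef1-/- libraries. The part of these cells in the E cyclin values was not tested.

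**Figure D2:**
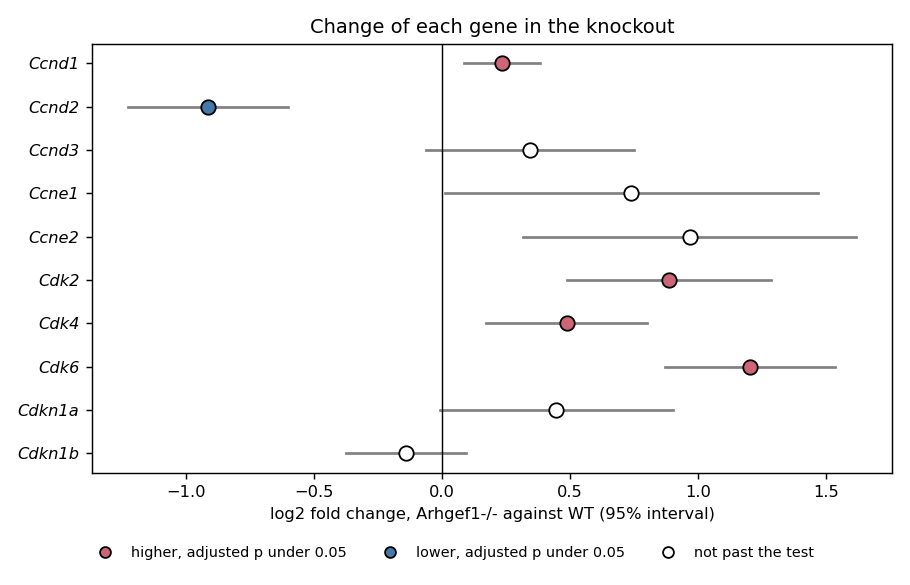
Log2 fold change of Arhgef1-/- against WT (x axis) for each of the 10 genes (y axis), with the 95% interval as a line and a filled point where the adjusted p was under 0.05. Cdk6 lies farthest to the right at 1.20 and Ccnd2 farthest to the left at -0.91.

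All 3 G1 kinases rose, Cdk6 most. Cdk6 (ENSMUSG00000040274.11, chromosome 5, 3341485 to 3531008, plus strand), a partner of the D cyclins, stood at 24.6, 26.8 and 22.5 CPM in WT and at 53.2, 52.7 and 64.1 CPM in Arhgef1-/- libraries. The lowest Arhgef1-/- value lay far above the highest WT value. The rise was 1.20 ± 0.16 on the log2 scale (adjusted p = 4.66e-05), a 2.30-fold change, and rank 58 of 11504 genes by p. It stayed called without any 1 library (1.10 to 1.26).

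Cdk2 (ENSMUSG00000025358.16, chromosome 10, 128697939 to 128705031, minus strand), the partner of the E cyclins, stood at 24.5, 33.7 and 26.8 CPM in WT and 37.7, 53.1 and 65.9 CPM in Arhgef1-/- libraries. The groups did not overlap, although Arhgef1-/- replicate 1 lay only a little above WT replicate 2. The rise was 0.89 ± 0.19 (adjusted p = 0.00460) and stayed called without any 1 library (0.68 to 1.08, adjusted p up to 0.0444). Cdk4 (ENSMUSG00000006728.12, chromosome 10, 127063534 to 127067920, plus strand), the other partner of the D cyclins, stood at 39.2, 35.2 and 38.6 CPM in WT and 52.6, 59.1 and 46.8 CPM in Arhgef1-/- libraries. The groups were separate and the change smaller, at 0.49 ± 0.15 (adjusted p = 0.0430). The call of Cdk4 was lost in 5 of 6 fits, without WT replicates 1, 2 or 3 (0.52, 0.44 and 0.50) and without Arhgef1-/- replicates 1 or 2 (0.49 and 0.40), and with the replicate number as a block (adjusted p = 0.0646).

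The exons of Cdk4 share 641 bases with those of Tspan31 on the other strand, whose level was 44.8 and 46.1 CPM in WT and Arhgef1-/- libraries and did not pass (0.04 ± 0.16, adjusted p = 0.915). Ccnd1 shares 1100 bases with Oraov1 (LTO1; 20.8 and 22.6 CPM, adjusted p = 0.796) and Ccne2 shares 609 with Ints8 (104 and 103 CPM, adjusted p = 0.965). Bysl, which shares 361 bases with Ccnd3, stood at 13.8 and 16.6 CPM (adjusted p = 0.676). Ccnd2 shares 368 bases with the antisense gene 9330179D12Rik (1.89 and 2.20 CPM, adjusted p = 0.898) and 372 with Gm43126, Cdk6 shares 368 with Gm17590, Cdkn1a 273 with AC167363.2 and Cdk2 34 with Pmel, of which the last 4 were not analysed here. No source used here gives the strand setting of the counting, so reads of the shared bases cannot be assigned, and none of the 5 neighbours given with values passed the test.

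The RefSeq table (GRCm38.p6, the assembly of mm10) held promoters for 7 of the 10 genes in 9 windows, and the 250 bases before each start were searched on both strands for 5 motifs: the E-box, E2F words, the CHR word (TTTGAA), the CCAAT box (the letters of its name) and the GC box (GGGCGG). The sequences shown are those of the kinases that rose. The word CACGTG, the E-box that Myc and related factors bind, occurred 4 times before the start of Cdk4, at 172, 118, 98 and 11 bases. Of 32851 promoters 6.02% held at least 1 such word and 7 (0.0213%) held 4 or more. Positions are those of a word's first base. Cdk6 held 1 E-box, at 220 bases, within an exon of a longer Cdk6 transcript in the annotation. Cdk2 held 1 E2F word on the opposite strand, at 140 bases, out of the 4 words TTTGGCGC, TTTCCCGC, TTTGCCGC and TTTCGCGC, which 1.86% of promoters hold; it lies in an exon of Pmel, the neighbouring gene on the other strand. The E-box was in the windows of Cdk4 and Cdk6 alone and an E2F word in that of Cdk2 alone, out of the 9 windows, and the CHR word, which 16.0% of promoters hold, was in 0 of them. GC boxes, which 32.7% of promoters hold, numbered 5 before Cdk2, 4 before Ccne1, 1 each before Cdk4 and Cdkn1b, and 1 and 2 in the windows of Ccnd3 and 2 in 1 window of Cdkn1a. The CCAAT box, which 33.8% hold, was found 2 times before Cdkn1b and 1 time each before Cdk2 and a start of Ccnd3. Matched words in the runs shown do not overlap, a match is a description and not a site, and a missing word says only that these letters are not in the window. The runs below are the Cdk4 bases from 250 to 2 before the start (chr10:127063285-127063533, plus strand), 30 bases of Cdk2 (chr10:128705173-128705202, minus strand) and 30 bases of Cdk6 (chr5:3343661-3343690, plus strand). Each is given 5′ to 3′ with matched E-box and E2F words in capitals, and the GC box of Cdk4 is left in lower case.
Cdk4: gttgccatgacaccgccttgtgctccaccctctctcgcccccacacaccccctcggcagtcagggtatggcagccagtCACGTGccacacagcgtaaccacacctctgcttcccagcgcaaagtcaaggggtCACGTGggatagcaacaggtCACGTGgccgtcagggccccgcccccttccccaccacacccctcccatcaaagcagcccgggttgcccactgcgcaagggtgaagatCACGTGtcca
Cdk2: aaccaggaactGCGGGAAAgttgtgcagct
Cdk6: gttctgcggcccCACGTGggtgaacccccg

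Neither CDK inhibitor passed the test. Cdkn1b, the more abundant, stood at 103, 97.9 and 117 CPM in WT and 93.5, 95 and 99.6 CPM in Arhgef1-/- libraries. The groups overlapped and the Arhgef1-/- values were close together. Its log2 fold change was -0.14 with a 95% interval from -0.37 to 0.09 (adjusted p = 0.514). Cdkn1a stood at 17.1, 15.0 and 15.5 CPM in WT and 18.9, 20.2 and 25.6 CPM in Arhgef1-/- libraries. Its values did not overlap, but the difference of 0.45 ± 0.22 (95% interval -0.01 to 0.90, adjusted p = 0.234) was not past the threshold. The upper bounds of both intervals, which are not adjusted for the number of genes, lie below the estimate for Cdk6 (1.20). The 95% interval of Cdk6, 0.87 to 1.53, overlaps that of Cdkn1a, and the difference between these genes was not tested.

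Per kilobase of exon, which allows levels to be compared between genes, Ccnd1 stood far above the other genes at 387 ± 9.0 CPM per kilobase in WT and 456 ± 37.6 in Arhgef1-/- libraries (SD, n = 3 each). Next in WT came Cdkn1b (23.3 ± 2.21) and Ccnd2 (19.9 ± 3.72), whose ranges overlapped, then Cdk4 (11.6 ± 0.65), below both. Cdk2 (4.56), Cdkn1a (4.45), Ccnd3 (3.58) and Ccne1 (3.49) followed, each overlapping the next, and Ccne2 (1.86) and Cdk6 (1.76), which overlapped, lay below them. In Arhgef1-/- libraries Cdk4 (16.3 ± 1.89) stood above Ccnd2 (10.6 ± 2.17) with no overlap, the reverse of the WT order. From Ccnd2 down, each Arhgef1-/- range overlapped the next: Cdk2 (8.40), Cdkn1a (6.06), Ccne1 (5.84), Ccnd3 (4.54), Cdk6 (4.05) and Ccne2 (3.62). Lengths are those of all annotated exons together, so a gene whose cells use a short isoform is understated.

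Ratios of 2 genes within a library do not depend on how libraries are scaled, and 6 were compared with a two-sided exact permutation test, which cannot go below 0.1 with 3 against 3. The log2 ratio of Cdk4 to Cdk6, per kilobase, was 2.72 ± 0.20 in WT and 2.0 ± 0.32 in Arhgef1-/- libraries (SD), a difference of -0.71. That of Ccnd3 to Ccnd2 went from -2.50 ± 0.35 to -1.20 ± 0.43, a difference of 1.30. That of Cdkn1a to Cdkn1b went from -2.38 ± 0.17 to -1.81 ± 0.18, a difference of 0.57. In these 3 ratios the groups did not overlap (exact permutation p = 0.1 each, adjusted p = 0.2). The groups overlapped for Cdk2 to Cdk4 (difference 0.37, exact permutation p = 0.4), Ccne1 to Ccne2 (-0.22, p = 0.8) and Ccnd1 to Ccnd3 (-0.15, p = 0.9).

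**Figure D3:**
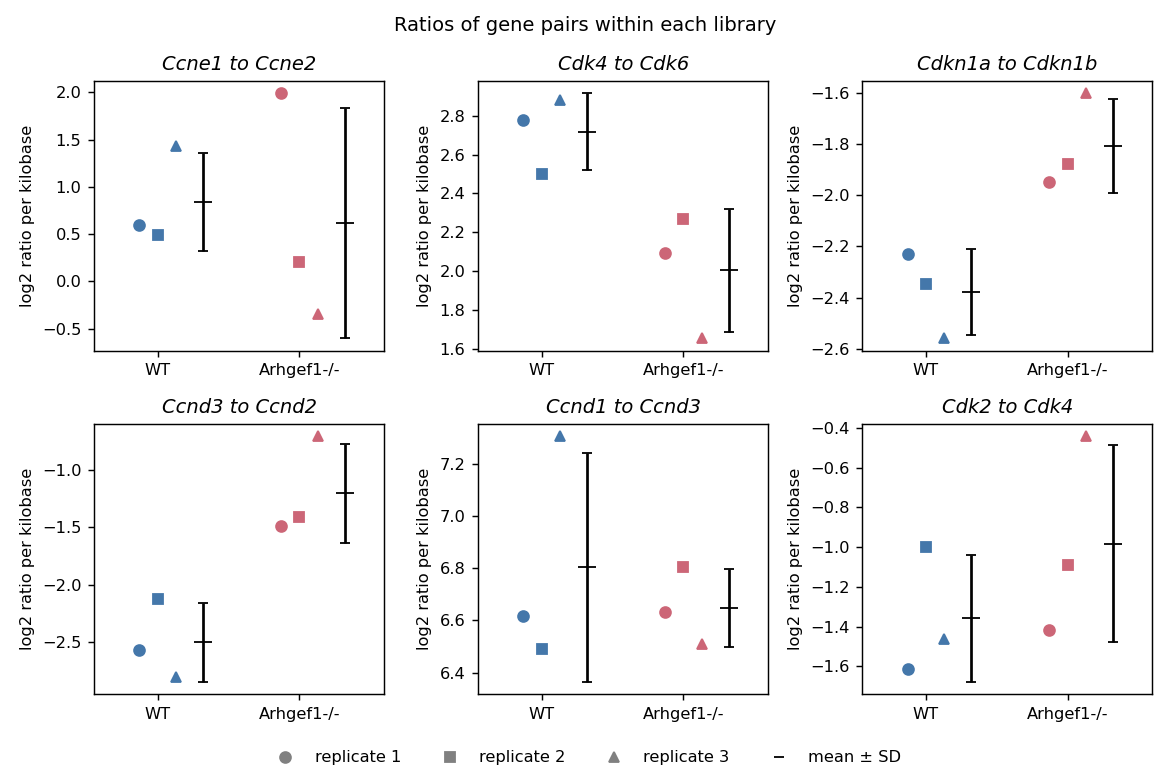
Log2 ratio of 2 genes per kilobase of exon (y axis) within each WT and Arhgef1-/- library for the 6 pairs compared, with a bar for the mean ± SD (n = 3). The groups are separate for Cdk4 to Cdk6, Cdkn1a to Cdkn1b and Ccnd3 to Ccnd2, and the widest spread, 1.22 (SD), is that of Ccne1 to Ccne2 in the Arhgef1-/- libraries.

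Genes that act downstream of the G1 kinases were mostly higher. Of 20 genes that E2F switches on at the G1/S boundary 17 rose and 0 fell, with a median log2 fold change of 0.82. Among them were Rrm2 (76.9 to 167 CPM, 1.12 ± 0.13) and Rrm1 (0.98 ± 0.12), the subunits of ribonucleotide reductase, and the replicative helicase genes Mcm2 (1.16 ± 0.14) and Mcm6 (0.79 ± 0.11). All 5 tested cyclins and kinases of S, G2 and M phase rose, with a median of 1.13. Ccna2, which takes over Cdk2 in S phase, went from 67.4 ± 13.2 to 148 ± 8.53 CPM (1.13 ± 0.13), and the mitotic cyclin gene Ccnb2 from 34.1 ± 4.44 to 90.0 ± 21.3 CPM (1.40 ± 0.17). Cdk1 rose from 11.3 to 23.2 CPM (1.04 ± 0.26) but lost its call without WT replicate 2 (0.92) or Arhgef1-/- replicates 2 or 3 (0.91 each). Ccnb1, a mitotic cyclin gene named after its value was seen, went from 4.54 to 10.6 CPM (1.22 ± 0.33), and lost its call without WT replicates 1 or 2 (1.30 and 1.08) or Arhgef1-/- replicates 2 or 3 (1.23 and 1.17). The list thus had 4 genes called without WT replicate 1 and 3 in each of the other 3 fits.

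Of 13 pocket protein and E2F genes 6 rose and 0 fell (median 0.41). They included the E2F genes E2f8 (60.1 to 149 CPM, 1.31 ± 0.12) and E2f7 (1.31 ± 0.19), which repress E2F targets, the activator E2f2 (0.56 ± 0.11) and the dimerization partner gene Tfdp1 (0.90 ± 0.20). E2f1 rose by 1.04 ± 0.24 but lost its call without WT replicates 1 or 2 (0.94 and 0.91) or Arhgef1-/- replicates 2 or 3 (0.95 and 0.86). Rbl1, a relative of Rb1 named after its value was seen, rose by 0.42 ± 0.13 (adjusted p = 0.0459). Its call was lost without WT replicates 1 or 2 (0.37 and 0.36) or Arhgef1-/- replicate 3 (0.27), each of which left 4 of the 13 genes called, and with upper-quartile factors, limma-voom and the fit without robust estimation (adjusted p up to 0.0625). Rb1, the retinoblastoma gene itself, stood at 317 and 299 CPM (-0.08 ± 0.08, adjusted p = 0.610).

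Of 20 tested genes of CDK activation and cyclin turnover 6 rose and 0 fell (median 0.28). Dtl, which directs the breakdown of p21 and other proteins in S phase, rose from 35.5 to 70.5 CPM (0.99 ± 0.15), and Cks1b, which helps the ubiquitin ligase of p27, from 18.1 to 37.1 CPM (1.04 ± 0.18). Both inhibitory kinases of CDKs in the list, Pkmyt1 (1.06 ± 0.21) and Wee1 (0.89 ± 0.19), rose as well. The other 2, Skp2 (0.68 ± 0.14), a subunit of the p27 ubiquitin ligase, and Ddb1 (0.47 ± 0.11), were named after their values were seen. Of 4 other CDK inhibitors tested 1 rose, Cdkn2d (p19), by 0.82 ± 0.25 (adjusted p = 0.0396), and its call was lost without any 1 library other than Arhgef1-/- replicate 3 (0.60 to 0.97). Cdkn2c (p18) stood at 16.0 ± 0.78 and 21.7 ± 0.33 CPM (0.44 ± 0.21, adjusted p = 0.211).

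Cyclins and CDKs of transcription and of other roles did not show this pattern. Of 23 tested, 1 rose and 2 fell, with a median of -0.01. These were Ccnk (0.43 ± 0.13), Ccnl1 (-0.29 ± 0.08) and Ccnt2 (-0.38 ± 0.11). Ccnl1 lost its call without any 1 library (-0.32 to -0.27). Ccnk lost it without WT replicates 2 or 3 (0.38 and 0.35) or Arhgef1-/- replicates 2 or 3 (0.44 and 0.33), and Ccnt2 without any 1 library other than WT replicate 3 (-0.39 to -0.30).

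In the Myc network 1 gene passed, of the FoxO factors and their targets 0 passed, and p53 and its targets moved in both directions. Myc, which drives growth and entry into the cycle, rose from 70.1 ± 6.03 to 100.2 ± 5.47 CPM (0.52 ± 0.12, adjusted p = 0.00780), a call lost without WT replicate 2 (0.45). Myc was the 1 gene of 10 in the Myc network to pass, beside 10% of all genes tested. Of 18 tested p53 genes 2 rose and 3 fell (median 0.04). Trp53 rose by 0.37 ± 0.10, a call lost without WT replicates 1 or 2 (0.39 and 0.32) or Arhgef1-/- replicates 2 or 3 (0.37 and 0.30). The second, Tnfrsf10b, named after its value was seen, had 1, 10 and 3 counts in WT and 18, 12 and 74 counts in Arhgef1-/- libraries, so that replicate 3 stood apart (2.61 ± 0.82, adjusted p = 0.0460). Its call was lost without WT replicates 1 or 3 (2.09 and 2.40) or Arhgef1-/- replicate 3 (1.64), and with upper-quartile factors, limma-voom, the replicate block and the fit without robust estimation (adjusted p from 0.0508 to 0.0887). The stricter filter left it out. Without WT replicate 1 or Arhgef1-/- replicate 3, 0 p53 genes passed the edgeR test as higher. The growth-restraining p53 targets Btg2 (741 to 478 CPM, -0.63 ± 0.08), Trp53inp1 (-0.85 ± 0.15) and Sesn1 (-0.53 ± 0.14) fell; Sesn1 lost its call without WT replicate 3 (-0.43) or Arhgef1-/- replicate 2 (-0.42). Of 14 FoxO factors and targets, genes of the pathway that also controls Cdkn1b, 0 passed the edgeR test in either direction (2 at an unadjusted p under 0.05, 0 with DESeq2, median -0.21), with Foxo1 at -0.21 ± 0.11 (adjusted p = 0.253) and Txnip at -0.20 ± 0.09 (adjusted p = 0.188).

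**Figure D4:**
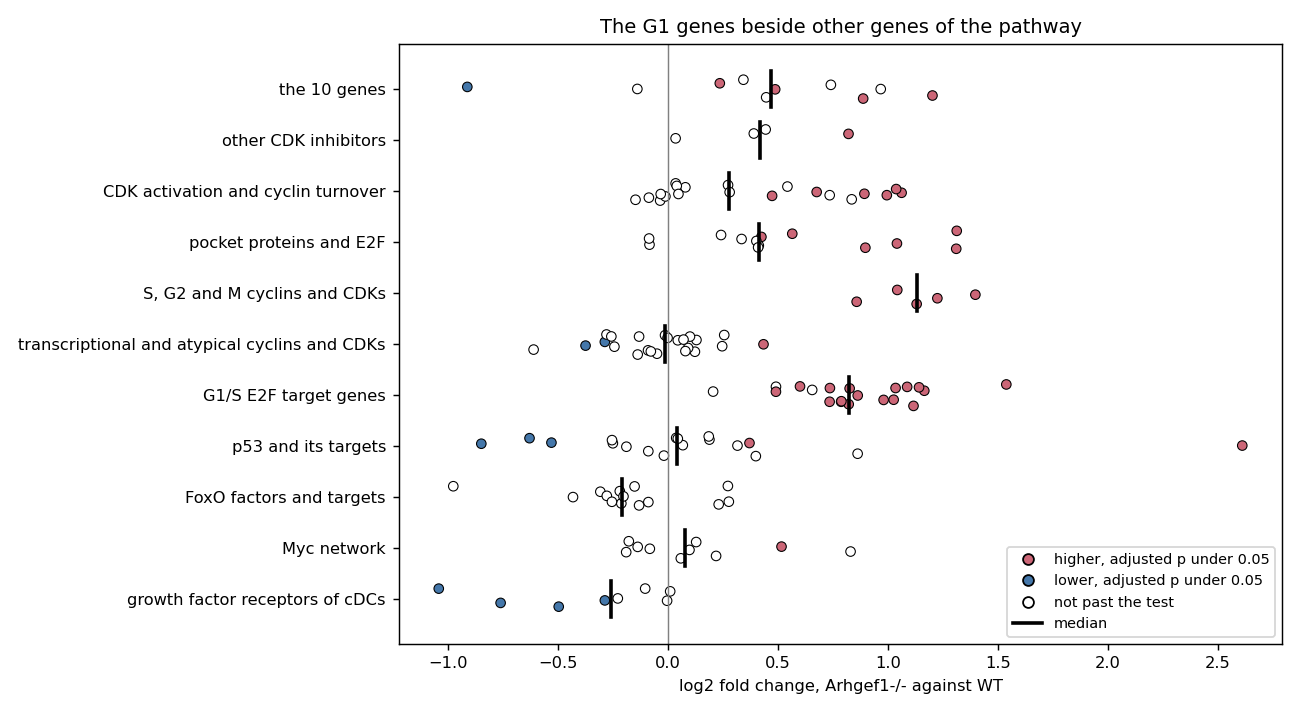
Log2 fold change of Arhgef1-/- against WT (x axis) for each tested gene of the 10 G1 genes and of 10 other gene lists (y axis), with filled points for genes past the test and a black bar at each list's median. The medians of the G1/S E2F target genes (0.82) and of the S, G2 and M cyclins and CDKs (1.13) lie to the right of that of the 10 genes (0.47).

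The genes whose log2 CPM followed that of Cdk6 most closely over the 6 libraries were Dtl (Pearson r = 0.995), the amino acid transporter gene Slc7a5 (0.994) and the DNA repair gene Parp1 (0.990), out of 8669 candidates. The 6 points fall into the 2 genotypes and share their libraries, so these values are a description only. Slc7a5 went from 22.9 to 46.5 CPM (1.02 ± 0.17) and Parp1 from 116 to 159 CPM (0.45 ± 0.10).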

How the data were processed

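The authors deposited raw read counts per gene symbol for 6 libraries. Per the submitters' processing notes, mm10 was the build and STAR, HTSeq and DESeq2 were used; no source used here gives versions, annotation, filters or strand setting. Genes were tested in R 4.3.3 with edgeR 4.0.16 (filterByExpr, TMM, robust quasi-likelihood fit with genotype as its term, Benjamini-Hochberg over 11504 genes). Each SE is the size of the log2 fold change over the square root of F. One CPM was worth 8.48 to 11.7 counts. Positions and exon lengths came from GENCODE vM21 (mm10), which matched 13319 of 14788 symbols; of 262 list entries 5 matched through an older symbol. Ratios used a pseudocount of 0.5. In simulated counts of 11338 genes, with 50 changed per fold, 54% of 1.5-fold and 78% of 2-fold rises and 36% of falls to 0.667 were recovered, with 3 false calls. Alternatives used DESeq2 1.42.0 and limma 3.58.1, and are given in the closing section; 1 was added after seeing the data. Same-numbered libraries did not deviate together (correlations -0.03 to 0.04). The named genes were all 10 G1 genes, Arhgef1, up to 4 genes with the smallest p per list, Myc, E2f1, Rb1, Ccna2, Cdk1, Cdkn2c, Trp53 and the 3 genes most like Cdk6. The genes and lists were chosen with earlier results of these data known. Markers of B, T, NK, plasma, erythroid, neutrophil, platelet, stromal, monocyte, plasmacytoid and cDC1 cells were also listed.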

Additional observations from a re-analysis of the deposited data

How the results depend on the processing

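The calls of Cdk6, Cdk2 and Ccnd2 held under every alternative run, and those of Ccnd3, Ccne1, Cdkn1a and Cdkn1b stayed not past the test. With upper-quartile factors 2 of the 10 genes were higher, since Ccnd1 (0.21) and Cdk4 (0.46) missed the threshold. The replicate number as a block (replicate block) also gave 2 higher, with Ccnd1 at 0.23 and Cdk4 at 0.48, and changed no other call of the 10. Limma-voom lost Cdk4 (0.47). Total counts without TMM (1.0) and DESeq2 (0.97) called Ccne2. Leaving out the 50 most abundant genes removed Ccnd1, which therefore has no value there. Leaving out 1 library gave 318 to 607 higher and 273 to 506 lower genes over all tested (606 and 547 with all), 2 to 4 higher among the 10, and log2 fold changes of 0.17 to 0.29 for Ccnd1, 0.40 to 0.57 for Cdk4 and 0.81 to 1.21 for Ccne2. The counts dropped to 343 and 273 without WT replicate 1, 318 and 321 without WT replicate 2, 385 and 346 without WT replicate 3, and 344 and 338 without Arhgef1-/- replicate 2. The ratio of Ccne1 to Ccne2 ran from -0.91 to 0.26 and turned positive without WT replicate 3 (0.076) or Arhgef1-/- replicate 3 (0.26), and that of Ccnd1 to Ccnd3 ran from -0.31 to 0.095, turning positive without WT replicate 3 (0.095). Counts of the lists differed by over 1.5 times in 33 of 320 cases, 24 of them on leaving out 1 library. The cause of these differences was not tested, also where 1 library was left out.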

Other observations

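Of 8 receptors for growth and survival factors of dendritic cells, 4 fell and 0 rose, beside 4.75% of all genes tested that fell. Their median log2 fold change was -0.26. Flt3, Csf2ra, Ltbr and Notch2 did not pass the test. Csf2rb2 went from 61.9 ± 10.4 to 30.1 ± 5.45 CPM (-1.04 ± 0.17) and Csf2rb, the shared receptor chain for GM-CSF, IL-3 and IL-5, from 340 ± 30.1 to 241 ± 14.4 CPM (-0.50 ± 0.09). The M-CSF receptor gene Csf1r, which macrophages also express, fell by 0.76 ± 0.16 on the log2 scale. Kit, the stem cell factor receptor gene, went from 784 to 642 CPM (-0.29 ± 0.07), a call lost without WT replicates 2 or 3 (-0.28 and -0.27) or Arhgef1-/- replicate 2 (-0.25). Csf2rb2 and Csf2rb are close copies, so reads could be split between them.

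The markers of other cell types listed for B, NK, plasma, erythroid, neutrophil, platelet and stromal cells had 0 genes past the edgeR test, but few could be tested: 6 B cell, 3 erythroid, 2 plasma cell, 2 stromal or endothelial and 1 each of the NK, neutrophil and platelet markers. Of these, 1 plasma cell and 1 stromal or endothelial marker had an unadjusted p under 0.05, and DESeq2 called 0. Tcf7 of the T cell list (0.65 ± 0.18) and Spib of the plasmacytoid list (0.81 ± 0.13) rose, and Cadm1 of the cDC1 list (-1.08 ± 0.32) and Csf1r and Plac8 (-0.43 ± 0.12) of the monocyte list fell. Tcf7 lost its call without any 1 library other than Arhgef1-/- replicate 2, Cadm1 without WT replicates 1 or 2 or Arhgef1-/- replicates 2 or 3, and Plac8 without WT replicates 1 or 3 or Arhgef1-/- replicates 1 or 3.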
